A study of Mus musculus with 4 samples.

Results

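The mitochondrially encoded genes described here were the 37 genes annotated on chrM, the mitochondrial chromosome, among the 50600 genes counted in mouse T-helper 17 (Th17) cells. They were chosen by chromosome alone, and all 37 were found in each of the 4 files: 13 protein genes, 2 rRNA genes and 22 tRNA genes. Th17 cells are a helper subset of CD4 T cells known for making interleukin 17. The libraries came from primary cells of mouse strain C57BL/6NJ, for which the labels link a CD4 T cell differentiation protocol. There was 1 group of 4 libraries, numbered by the labels as biological replicates 1 to 4, with no treatment, genotype or second cell type to compare it with. The labels leave sex uncollected and age unknown. The libraries carry different biosample identifiers and 1 shared donor identifier, and the labels do not say whether they came from separate animals or cultures. Every SD and p-value below therefore measures the spread between these libraries, which may in part be technical. This spread also spans the difference in genes of the sex chromosomes that is given below. By its assay title this was total RNA-seq, whereas the name of the linked library protocol speaks of poly(A)+ RNA.

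The mitochondrial genome is a small circle of DNA that encodes core subunits of respiratory complexes I, III and IV and of the ATP synthase, together with the rRNAs and tRNAs needed to translate them. Both strands are transcribed into long precursors, and enzymes encoded in the nucleus cut out the tRNAs that lie between the other genes, which frees the mRNAs and rRNAs. The remaining subunits of the respiratory chain, and all proteins that transcribe, process and translate mitochondrial RNA, are made from nuclear genes. Nuclear chromosomes also hold copies of stretches of mitochondrial DNA, and a sequencing read from a stretch with a close nuclear copy cannot be assigned to one place.

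The total counts per library ranged from 25847970 to 40652146. All 7 listed T cell markers reached 1 TPM (counts divided by gene length and scaled to the same sum in every library), and their summed level was 6786 to 7132 TPM. Among the Th17 markers, Il17f stood at 12.4 TPM, Rora at 9.82 and Il17a at 5.65, and Il23r was lowest at 0.132. Among the markers of other cells, the B cell gene Ms4a1, the NK cell genes Ncr1 and Klrb1c and the erythroid gene Hbb-bs were at 0 in every library, and the summed level of that list was 31.03 to 43.3 TPM. Its members with a mean of at least 1 TPM were the CD8 T cell gene Cd8b1 at 27.0, above every Th17 marker, Epcam at 6.71, Col1a1 at 1.35 and the B cell gene Cd79a at 1.15. Replicates 1 and 2 differed from replicates 3 and 4 in genes of the sex chromosomes. Xist stood at 0.791 and 0.602 TPM in replicates 1 and 2 and at 142 and 76.5 TPM in replicates 3 and 4, and Ddx3y stood at 305 and 213 against 0.914 and 1.39 TPM, although the labels give 1 donor identifier. By these genes replicates 1 and 2 read as male and replicates 3 and 4 as female, so the libraries did not all come from 1 animal. Sex cannot be told apart here from other differences between replicates 1 and 2 and replicates 3 and 4. Several cases where values of the members separate along this split are named beside the values, but not every such case is named.

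Fragments of the 37 genes made up 2.16%, 2.16%, 1.98% and 2.40% of all gene counts in replicates 1 to 4, a mean of 2.18% ± 0.174 (SD, n = 4). The 95% Wilson intervals ran from 2.158% to 2.167% in replicate 1, from 2.156% to 2.165% in replicate 2, from 1.973% to 1.983% in replicate 3 and from 2.396% to 2.408% in replicate 4. Replicate 4 was thus highest and replicate 3 lowest, by more than counting error, which is the only error that these intervals cover. In bulk RNA, fewer cells of a type and less RNA per cell cannot be told apart, and the same holds for mitochondria per cell. Leaving out 1 replicate at a time gave means of 2.10% to 2.24%.

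Protein genes held 95.005%, 94.3%, 94.9% and 95.4% of the chrM counts in replicates 1 to 4 (94.9% ± 0.441). The 2 rRNA genes held 4.97%, 5.64%, 5.03% and 4.57% (5.05% ± 0.440), and the 22 tRNA genes held 0.0231%, 0.0238%, 0.0240% and 0.0188% (0.0224% ± 0.00242). The order of the 3 classes was the same in all 4 libraries. Replicate 2 had the highest share of rRNA, and replicate 4 had the lowest share of both rRNA and tRNA.

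**Figure D1:**
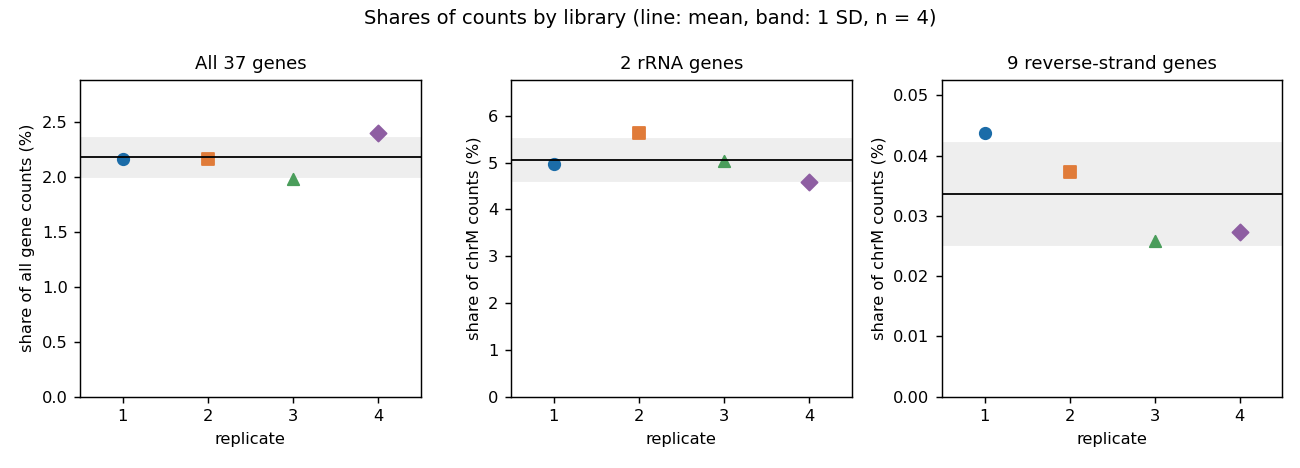
Shares of counts in each library. The left panel shows all 37 genes as a percent of all gene counts, the middle panel the 2 rRNA genes and the right panel the 9 genes on the reverse strand as a percent of chrM counts; points are replicates 1 to 4, the line is the mean and the band 1 SD (n = 4). Replicate 4 is highest on the left at 2.40% and lowest in the middle at 4.57%, and replicates 1 and 2 lie above replicates 3 and 4 on the right.

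The levels of the protein genes fell into a high set of 6 genes, 1 gene of moderate level and 6 genes at or near 0. The highest was mt-Co1, the catalytic core subunit of cytochrome c oxidase (complex IV), at chrM:5328-6872 in mm10. It stood at 20708, 19481, 19630 and 21839 TPM in replicates 1 to 4 (20415 ± 1096, SD, n = 4), which placed it at rank 1 of all 50600 genes by mean TPM. It alone held 42.5% ± 0.599 of the chrM counts and 0.923% ± 0.0650 of all gene counts. Replicate 4 was highest and replicate 2 lowest on the TPM scale.

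The other subunits of complex IV on chrM were mt-Co2, which carries the copper site that receives electrons from cytochrome c, and mt-Co3, a core subunit without a redox centre. The counts of mt-Co2 (chrM:7013-7696) were 0, 7, 0 and 1 in replicates 1 to 4, and those of mt-Co3 (chrM:8607-9390) were 0, 5, 6 and 0. A count of 0 allows up to 0.0826, 0.0738, 0.111 and 0.116 CPM (counts scaled by the library total) in replicates 1 to 4, taken as 3 counts. Both genes are thus listed at or near 0 beside a neighbour that led the whole transcriptome.

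Complex III has 1 subunit on chrM, the cytochrome b gene mt-Cytb (chrM:14145-15288). It stood at 10558, 10042, 10387 and 11836 TPM (10706 ± 783), rank 7 of all genes, with 16.5% ± 0.458 of the chrM counts. All 4 of its values lay below every value of mt-Co1 and above every value of mt-Nd1, and mt-Co1 exceeded it 1.96-fold, 1.94-fold, 1.89-fold and 1.85-fold in replicates 1 to 4 (1.91 ± 0.0520). Its share of chrM counts was 16.18%, 15.99%, 16.88% and 16.85%. Both measures separated replicates 1 and 2 from replicates 3 and 4, as Xist did.

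Complex I has 7 subunits on chrM, all in the membrane arm of the enzyme, where protons are pumped and ubiquinone is bound. mt-Nd1 (chrM:2751-3707), which lines the ubiquinone site, stood at 8568, 8612, 7765 and 9590 TPM (8634 ± 747, rank 8). mt-Nd2 (chrM:3914-4951), an antiporter-like pump subunit, stood at 5913, 5817, 5682 and 6710 TPM (6030 ± 463, rank 10). The other antiporter-like subunits were lower: mt-Nd5 (chrM:11742-13565) stood at 4854, 4620, 4200 and 5140 TPM (4703 ± 398, rank 16). For mt-Nd4 (chrM:10167-11544), the values were 2645, 2499, 2619 and 2782 TPM (2636 ± 116, rank 43). Per annotated length, these 4 genes kept the order mt-Nd1, mt-Nd2, mt-Nd5, mt-Nd4 in all 4 libraries, and the values of neighbours in this order did not overlap. Per word of sequence not shared with nuclear genes, described below, mt-Nd4 came above mt-Nd2 and mt-Nd5 by the mean of the 4 libraries.

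Of the 3 smaller complex I genes, which encode short membrane subunits, mt-Nd3 (chrM:9459-9806) and mt-Nd4l (chrM:9877-10173) had no count in any library. mt-Nd6 (chrM:13552-14070), the protein gene encoded on the reverse strand, had 329, 303, 128 and 161 counts. Its level was 60.3, 47.7, 32.6 and 40.1 TPM (45.2 ± 11.8), rank 3577 of all genes and far below the 6 high genes. The levels of mt-Nd6 in replicates 1 and 2 lay above those in replicates 3 and 4, along the Xist split.

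The ATP synthase has 2 subunits on chrM, both in its membrane sector: mt-Atp6, which forms the proton channel with the ring of c subunits, and mt-Atp8, a small stator subunit. mt-Atp8 (chrM:7766-7969) had no count in any library, and mt-Atp6 (chrM:7927-8607) had 1 count in replicate 2 and none elsewhere.

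**Figure D2:**
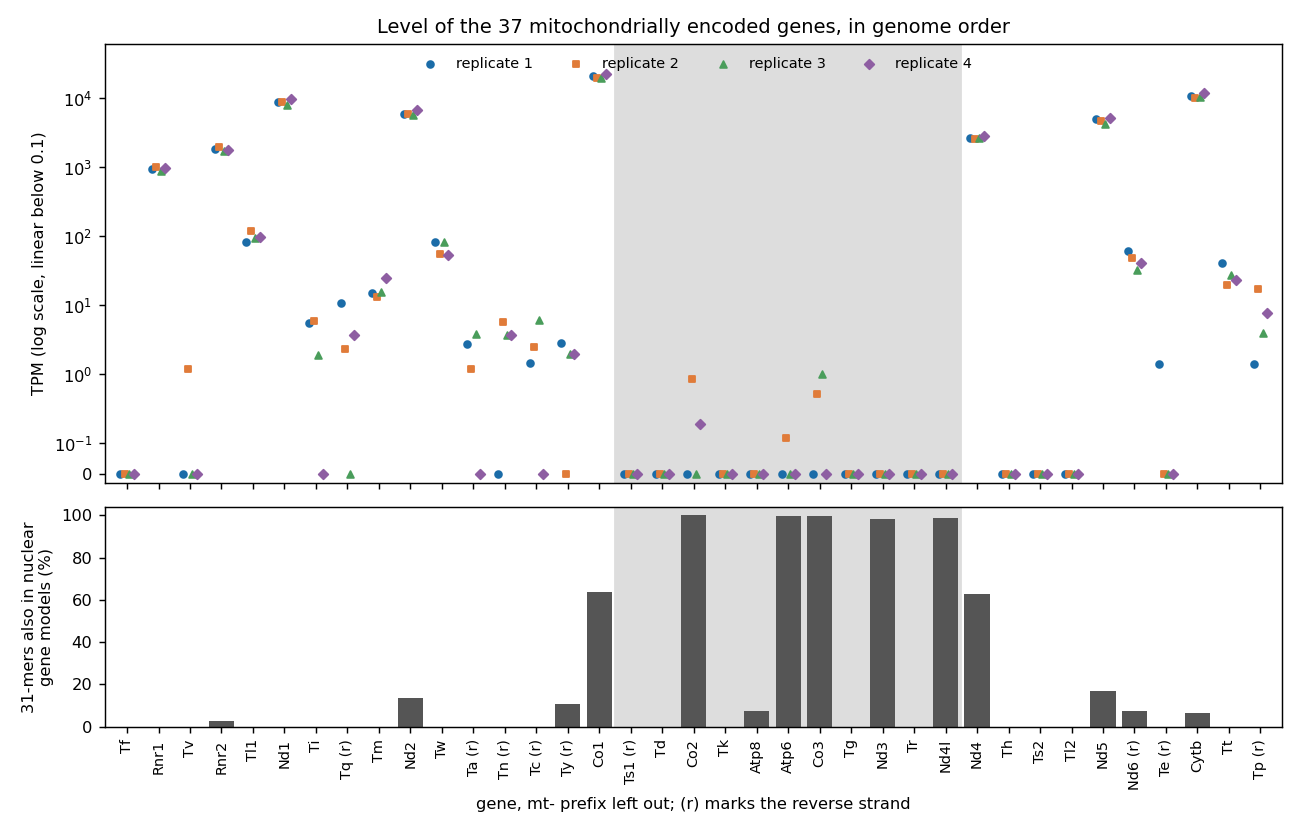
Level of each of the 37 genes in each library (upper panel, TPM, log scale that is linear below 0.1) and percent of its distinct 31-base words that also occur in a nuclear gene model (lower panel), in genome order. The shaded block marks the 11 genes from mt-Ts1 to mt-Nd4l, where every value is about 1 TPM or less, between mt-Co1 and mt-Nd4, whose means were 20415 and 2636 TPM.

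The genes at or near 0 were neighbours. The 11 genes from mt-Ts1 to mt-Nd4l, 6 protein genes and 5 tRNA genes, had 0, 13, 6 and 1 counts in replicates 1 to 4, or 20 counts in all among 2817464 chrM counts. Outside this block, the 7 other protein genes had 2673018 counts. The block lies inside a stretch of chrM that has a close copy on chromosome 1. On chromosome 1, 7 adjacent models annotated as unprocessed pseudogenes, all on the reverse strand and spanning chr1:24611535-24616197 (4663 bases), matched chrM from base 6381 to base 11042 in the order of the mitochondrial genes. They pair with mt-Co1, mt-Co2, mt-Atp6, mt-Co3, mt-Nd3, mt-Nd4l and mt-Nd4.

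Within the aligned bases, the copies of mt-Co2 (681 bases), mt-Atp6 (678), mt-Co3 (783), mt-Nd4l (294) and mt-Nd4 (876) had 0 mismatches. The copy of mt-Nd3, Gm28438, had 1 mismatch in 345 bases, T3C, counted from 1 at the 5′ end of the mitochondrial gene with the mitochondrial base first. In these reference sequences, this is the only base in 345 that tells the gene and its copy apart. Whether the mitochondrial DNA of the strain used here carries the reference base was not tested. The first bases of the gene and of its copy are shown with that base in capitals (mm10; GENCODE M21 transcripts, 5′ to 3′):
mt-Nd3, chrM:9459-9518, forward strand: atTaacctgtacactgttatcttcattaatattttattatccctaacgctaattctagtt
Gm28438, chr1:24613060-24613119, reverse strand: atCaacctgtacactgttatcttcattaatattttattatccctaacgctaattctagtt

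The end of the copied stretch fell inside mt-Co1. Its copy Gm29216 covered 492 of the 1545 bases of mt-Co1 and differed at 6 of them, T1056A, C1057T, A1059G, A1060G, C1062A and A1066T, all next to the edge of the copy. The edge is shown with the differing bases in capitals; downstream of them the sequences are identical:
mt-Co1, chrM:6381-6440, forward strand: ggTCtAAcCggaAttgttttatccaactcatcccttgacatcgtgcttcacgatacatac
Gm29216, chr1:24616138-24616197, reverse strand: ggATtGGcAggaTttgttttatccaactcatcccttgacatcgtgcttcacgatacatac
The 2 genes that reach across an edge of the copy, mt-Co1 with 1053 bases outside it and mt-Nd4 with 502, were the 2 genes in contact with the copy that had high counts.

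Counted as distinct 31-base words on both strands, the share found in nuclear gene models was 100% for mt-Co2, 99.9% for mt-Co3, 99.5% for mt-Atp6, 98.9% for mt-Nd4l and 98.1% for mt-Nd3. It was 63.9% for mt-Co1 and 62.8% for mt-Nd4, then 16.8% for mt-Nd5, 13.5% for mt-Nd2, 7.4% for mt-Nd6, 6.6% for mt-Cytb and 2.7% for mt-Rnr2. mt-Nd1, mt-Rnr1 and all tRNA genes but mt-Ty shared none. The remaining genes of the block did not share many words with gene models: mt-Atp8 shared 7.5%, and the 5 tRNA genes of the block shared none. The matching stretch of chromosome 1 for mt-Atp8, chr1:24614609-24614812, lies between models for 161 of 204 bases, and the sequence between models was not used here. Under the counting options in the file headers, a fragment that aligned to both chromosomes was not counted for either gene. How many fragments this removed was not tested, and the level of these mRNAs cannot be read from the near-zero counts.

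The levels of the protein genes that share at least 50% of their words with nuclear gene models were compared with those of the other 6 on the log2(TPM + 1) scale, by the median of each set within libraries. The sharing set was lower in 4 of 4 libraries, with a difference of -12.22 ± 0.34 (exact two-sided sign-flip permutation test, p = 0.125, the smallest that 4 libraries can give; adjusted over 7 contrasts, p = 0.146). With members under 1 TPM left out of both sets, a filter on the level that is compared, the difference was 0.28 ± 0.06. The sharing set then held only mt-Co1, above all of the other set, and mt-Nd4, below mt-Cytb, mt-Nd1, mt-Nd2 and mt-Nd5.

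The models of the copies were assigned few counts, and whether mitochondrial RNA contributed to these counts was not tested. The 7 models of the chromosome 1 cluster had 170, 233, 95 and 105 counts in replicates 1 to 4, 603 in all, of which Gm28438 had 204, Gm10925 (the copy of mt-Atp6) 125 and Gm28661 (the copy of mt-Co2) 75. A copy of mt-Co1 on chromosome 2, Gm13340 (chr2:22588103-22589647), had 78, 75, 42 and 49 counts and shared 45.2% of the words of mt-Co1. Of 23 nuclear models that shared any word with chrM genes, 12 shared at least 100, and these 12 had 932 counts. The protein gene Cep295 had 6238 counts but shared only 4 words, with mt-Ty. Adding nuclear copies to the numerator gave a chrM share of 2.177%, against 2.176% without them.

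The 2 genes that straddle the chromosome 1 copy have many words in common with nuclear gene models, which bears on their levels. For mt-Nd4, the copy Gm28439 held all 846 shared words. For mt-Co1, Gm29216 held 449 shared words and the chromosome 2 copy Gm13340 held 685. A fragment longer than a shared word may still be assigned, so the unshared words are not a count of the bases that could be assigned. Divided by the number of words not found in nuclear gene models, an alternative chosen after seeing the data, the value of mt-Nd4 was 2.75 times its value per length and that of mt-Co1 2.82 times. For the other 7 protein and rRNA genes with 100 or more counts the factor was 1.03 to 1.22. mt-Nd4 then moved from rank 6 to rank 4 among these 9 genes, and mt-Nd5, 1.78 times as high as mt-Nd4 per length, was 0.794 times as high. The ratio of mt-Co1 to mt-Cytb was 1.91 per length and 4.91 per unshared word. For mt-Co1 the unshared part depends on the word length. With words of 100 bases the shared part was 30.8% for mt-Co1 and 60.8% for mt-Nd4, against 63.9% and 62.8% of 31-base words. Division by unshared words of 100 bases was not run, so the value of 4.91 holds for 31-base words only. The first rank of mt-Co1 and the second rank of mt-Cytb held on both scales.

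Pairs of protein genes on chrM overlap, and fragments that touch both genes of a pair were also not counted. mt-Atp8 and mt-Atp6 share 43 bases and mt-Nd4l and mt-Nd4 share 7, in each case as the end of one reading frame and the start of the next on a joint mRNA. The overlaps are shown in capitals, since a fragment there belongs to both genes of its pair:
mt-Atp8 end, chrM:7907-7969: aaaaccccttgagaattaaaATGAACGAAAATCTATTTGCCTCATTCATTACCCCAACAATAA
mt-Atp6 start, chrM:7927-7989: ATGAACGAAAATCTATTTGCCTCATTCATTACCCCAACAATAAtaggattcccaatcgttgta
mt-Nd4l end, chrM:10144-10173: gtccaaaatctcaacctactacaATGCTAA
mt-Nd4 start, chrM:10167-10196: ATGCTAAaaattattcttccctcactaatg
mt-Nd5 and mt-Nd6 overlap by 14 bases on opposite strands, which the stranded counting separates.

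In the reference sequence, the protein genes also share features of their ends. Of the 13, 9 start with ATG, and mt-Nd2 starts with ATA, mt-Nd5 with ATC, mt-Nd3 with ATT and mt-Nd1 with GTG. TAA closes 8 and TAG closes mt-Nd1 and mt-Nd2. In mt-Co3, mt-Nd4 and mt-Cytb the annotated gene ends in a single T after its last full codon, which the poly(A) tail is known to complete to a stop codon. The last 30 bases of these 3 genes and, for comparison, of mt-Co1 are given with the last codon or its first base in capitals:
mt-Co3 end, chrM:9361-9390: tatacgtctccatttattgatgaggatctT
mt-Nd4 end, chrM:11515-11544: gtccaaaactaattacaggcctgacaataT
mt-Cytb end, chrM:15259-15288: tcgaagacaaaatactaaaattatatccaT
mt-Co1 end, chrM:6843-6872: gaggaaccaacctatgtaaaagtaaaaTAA
Genes of both kinds of ending were high (mt-Co1 and mt-Cytb). mt-Co2 and mt-Co3 also differ in their ending, but their level cannot be read from their near-zero counts, so they allow no comparison by ending.

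The complex IV and complex I genes were also compared by their medians. The median of mt-Co1, mt-Co2 and mt-Co3 lay below the median of the 7 complex I genes in 4 of 4 libraries, by -10.83 ± 0.53 on the log2(TPM + 1) scale (exact sign-flip permutation test, p = 0.125, adjusted p = 0.146). With members under 1 TPM left out, mt-Co1 lay above the median of the 5 remaining complex I genes by 2.12 ± 0.07. The direction of this comparison therefore rests on mt-Co2 and mt-Co3, which lie in the block with the nuclear copy.

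The 2 rRNA genes encode the RNAs of the small (mt-Rnr1) and large (mt-Rnr2) subunits of the mitochondrial ribosome and lie at the start of the forward-strand transcript. mt-Rnr1 (chrM:70-1024) stood at 917, 1003, 866 and 974 TPM (940 ± 60.8, rank 144), and mt-Rnr2 (chrM:1094-2675) at 1793, 1955, 1715 and 1736 TPM (1800 ± 109, rank 68). mt-Rnr2 was higher in 4 of 4 libraries, with ratios of 1.96, 1.95, 1.98 and 1.78 (1.92 ± 0.0905) and a difference of 0.94 ± 0.07 on the log2(TPM + 1) scale (exact sign-flip permutation test, p = 0.125, adjusted p = 0.146). Without division by length, on the log2(CPM + 1) scale, the difference was 1.66. Replicate 2 had the highest level of both rRNA genes and replicate 3 the lowest of both. For mt-Rnr2 on the TPM scale, replicates 1 and 2 lay above replicates 3 and 4, as in the split in Xist. With the normalisation of the variation test below, mt-Rnr2 stood at 833 CPM in replicate 1 and 843 CPM in replicate 4, so this split depended on the scale.

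Each of the 6 high protein genes stood above both rRNA genes in every library, and mt-Nd1, the protein gene next downstream, exceeded mt-Rnr2 4.78-fold, 4.41-fold, 4.53-fold and 5.53-fold in replicates 1 to 4. With 6 of the 13 protein genes at or near 0, their median was the value of mt-Nd6 in every library. This median fell below the median of the rRNA genes, by -4.85 ± 0.34 on the log2(TPM + 1) scale (exact sign-flip permutation test, p = 0.125, adjusted p = 0.146). The difference was -4.39 and -4.85 in replicates 1 and 2 and -5.18 and -4.98 in replicates 3 and 4, along the Xist split. Without members under 1 TPM the protein genes lay above by 2.21 ± 0.13. The sources used here do not state whether rRNA was depleted, so these ratios describe the content of the libraries.

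The tRNA genes, 59 to 75 bases long, had 181, 209, 128 and 117 counts in replicates 1 to 4, 635 in all. Of the 22, 13 had any count, 7 had at least 10 in all, and 9 had none: mt-Tf, mt-Ts1, mt-Td, mt-Tk, mt-Tg, mt-Tr, mt-Th, mt-Ts2 and mt-Tl2. Of these 9, 5 lie in the block with the nuclear copy, and mt-Th, mt-Ts2 and mt-Tl2 follow one another between mt-Nd4 and mt-Nd5. As TPM divides by length, a few counts give these short genes a visible TPM, so their levels are given with their counts. A fragment that reached into a neighbouring gene was not counted.

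The 3 leading genes held 82.4% of the tRNA counts. mt-Tl1, a leucine tRNA that lies directly between mt-Rnr2 and mt-Nd1, had 64, 107, 53 and 56 counts, or 81.2, 117, 93.3 and 96.6 TPM (96.9 ± 14.7). mt-Tw, the tryptophan tRNA, which overlaps the last 2 bases of mt-Nd2, had 58, 45, 42 and 27 counts (68.0 ± 16.8 TPM). mt-Tt, the threonine tRNA, which starts at the base after mt-Cytb ends, had 29, 16, 14 and 12 counts (27.9 ± 9.46 TPM). All 3 lie on the forward strand and abut the end of a gene of high count, but so do mt-Tv after mt-Rnr1, with 1 count, and mt-Ti at the end of mt-Nd1, with 10. The values of mt-Tl1 and mt-Tw overlapped between libraries, as did those of mt-Tw and mt-Nd6. The sequences of the 3 tRNAs with the most counts and of mt-Tf, the phenylalanine tRNA before mt-Rnr1 that had none, are shown to give the short targets on which these counts rest:
mt-Tl1, chrM:2676-2750: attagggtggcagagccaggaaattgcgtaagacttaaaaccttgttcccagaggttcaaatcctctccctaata
mt-Tw, chrM:4950-5016: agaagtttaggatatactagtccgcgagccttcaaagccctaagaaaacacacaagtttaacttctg
mt-Tt, chrM:15289-15355: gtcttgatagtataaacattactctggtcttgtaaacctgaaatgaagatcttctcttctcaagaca
mt-Tf, chrM:1-68: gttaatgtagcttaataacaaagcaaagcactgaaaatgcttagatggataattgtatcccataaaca

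The remaining tRNA genes had few counts. The methionine tRNA mt-Tm had 11, 11, 8 and 13 counts, and the proline tRNA mt-Tp had 1, 14, 2 and 4. mt-Tq (glutamine) had 8, 2, 0 and 2 counts, mt-Ti (isoleucine) 4, 5, 1 and 0, and mt-Tn (asparagine) 0, 5, 2 and 2. Under 10 counts in all were found for mt-Tn, mt-Tc (6), mt-Ta (5), mt-Ty (4), mt-Tv (1) and mt-Te (1), so no order can be read among them. For the 13 protein genes the median was again the value of mt-Nd6. The median of the 22 tRNA genes lay below it in 4 of 4 libraries, by 5.20 ± 0.16 on the log2(TPM + 1) scale (exact sign-flip permutation test, p = 0.125, adjusted p = 0.146). The size of this difference depended on the scale: it was 7.84 with a pseudocount of 0.1, 2.94 on the log2(CPM + 1) scale and 10.05 with members under 1 TPM left out.

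The reverse strand of chrM encodes mt-Nd6 and 8 tRNAs, and these 9 genes had 344, 327, 138 and 170 counts, or 0.0438%, 0.0372%, 0.0259% and 0.0274% of the chrM counts (0.0336% ± 0.00848). Both shares of replicates 1 and 2 lay above both shares of replicates 3 and 4, the split also seen in Xist and Ddx3y. Of the 979 reverse-strand counts, 921 were of mt-Nd6. The 8 tRNA genes on that strand had 58 counts, against 577 for the 14 on the forward strand. Counts antisense to the members were not analysed here, so the part of strand misassignment in the low reverse-strand counts was not tested.

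mt-Nd6 stood apart in sequence as well as in level. Its mRNA is 28.1% G and 5.97% C, whereas the 12 forward-strand protein genes run from 5.88% to 16.1% G and from 22.1% to 30.0% C. Other complex I and complex III genes exceeded it by large factors that varied between libraries: mt-Nd5 80.5-fold, 96.8-fold, 129-fold and 128-fold, and mt-Cytb 175-fold, 210-fold, 319-fold and 295-fold in replicates 1 to 4. These ratios were lower in replicates 1 and 2 than in replicates 3 and 4. Against the median of the 12 other protein genes, of which 6 are at or near 0, mt-Nd6 differed by 0.25, -0.48, -1.11 and -0.48 on the log2(TPM + 1) scale (-0.45 ± 0.56, lower in 3 of 4 libraries; exact sign-flip permutation test, p = 0.25, adjusted p = 0.25). With a pseudocount of 0.1 the mean difference was 0.41 ± 1.11. It was -2.15 ± 0.39 on the log2(CPM + 1) scale and -7.32 ± 0.37 against the 6 other protein genes of at least 1 TPM (exact sign-flip permutation test, p = 0.125 for each). The direction against all 12 thus turned with the pseudocount, while mt-Nd6 lay below each of the 6 high genes in every library.

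Variation between libraries was tested on the counts with edgeR, by asking whether a gene varied more than genes of like abundance. Of 11567 genes tested, 94 (0.813%) varied beyond the trend at an adjusted p under 0.05; without replicates 1, 2, 3 and 4 in turn, 60, 39, 59 and 35 did. Of the 37 chrM genes, 12 had enough counts to be tested, and 0 were called; 0 also had an unadjusted p under 0.05 in edgeR. None was called with DESeq2 size factors, at the common dispersion, with the chrM total as library size, without any 1 replicate or, over 25 members, without the filter on low counts, where mt-Co3 alone had an unadjusted p under 0.05. A share of 0.813% of 12 genes is less than 1 gene, so the count of 0 does not set the members apart from other genes. In simulated data the test recovered 45% of 2-fold changes in 1 library, so changes of that size can be missed.

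The gene nearest the threshold was mt-Nd6 (edgeR unadjusted p = 0.0576, adjusted p = 0.875), and its unadjusted p was 0.0273 at the common dispersion, 0.0280 without replicate 2 and 0.0261 without replicate 4, but 0.253 without replicate 1, 0.276 without replicate 3 and 0.263 with the chrM total as library size. Its mean was 8.26 CPM in replicates 1 and 2 and 5.49 CPM in replicates 3 and 4, and its highest library exceeded its lowest 1.91-fold. For the other 11 tested genes the unadjusted p was 0.372 to 0.802 and the adjusted p 1. edgeR also gives each gene a biological coefficient of variation, which it draws towards the trend of genes of like abundance. It is thus not the observed spread of the gene. Among the 6 high protein genes this value ran from 12.5% for mt-Nd4 to 13.8% for mt-Nd1, beside trend values of 13.8% and 13.7%. The SD of CPM as a percent of its mean, counting error included, was 5.46% for mt-Nd4 and 11.2% for mt-Nd1. edgeR's value was 20.5% for mt-Nd6 (trend 17.0%). For the tRNA genes mt-Tl1, mt-Tw and mt-Tt it was 21.2%, 23.0% and 25.7% (trend 23.3%, 25.4% and 25.9%).

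Replicate 3 was the lowest library for most of the abundant members. Of the 11 members with at least 100 counts in all, 9 were lowest in replicate 3 on the CPM scale. Replicate 4 was highest for mt-Co1, mt-Cytb, mt-Nd1, mt-Nd2, mt-Nd4 and mt-Nd5. Replicate 2 was highest for mt-Rnr1, mt-Rnr2 and mt-Tl1, which are neighbours on chrM, and replicate 1 for mt-Tw and mt-Nd6. The highest library exceeded the lowest 1.13-fold for mt-Nd4 and 1.18-fold for mt-Co1. Along the Xist split, mt-Co1 averaged 9160 CPM in replicates 1 and 2 and 9305 in replicates 3 and 4, and mt-Nd1 2427 and 2416, and on the CPM scale none of the 6 high protein genes had replicates 1 and 2 apart from replicates 3 and 4. Replicate 3 also had the highest level of the nuclear RNA Malat1, at 795 TPM against 427, 209 and 188 in replicates 1, 2 and 4, and the lowest share of ribosomal protein genes, at 5.23% of counts against 5.92%, 6.63% and 6.66%. Their part in the low chrM counts of replicate 3 was not tested.

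**Figure D3:**
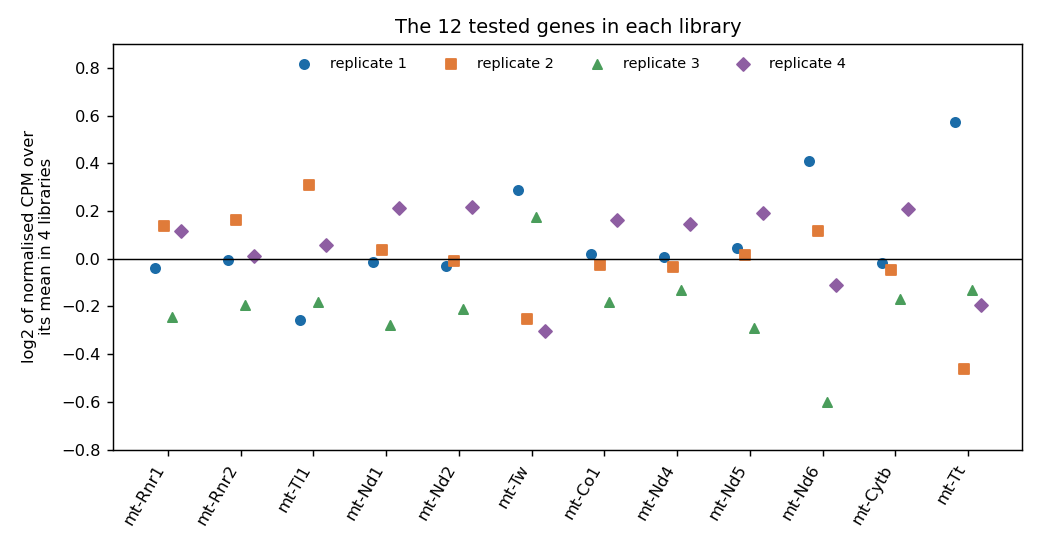
Normalised CPM of the 12 tested chrM genes in each library, as log2 of the value over the gene's mean of the 4 libraries; points are replicates 1 to 4. Replicate 3 lies lowest for the 6 high protein genes and replicate 4 highest, while mt-Nd6 is highest in replicate 1 and lowest in replicate 3.

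The nuclear partners of the subunits lay between the 6 high mitochondrial genes and the 6 genes at or near 0. All 72 listed nuclear genes of complexes I, III and IV and the ATP synthase had at least 1 TPM, with a median of 82.6 TPM, against 0.279 TPM over all 21764 protein coding genes. The highest were Atp5a1 (619.7 ± 28.7) and Atp5b (543 ± 39.97), subunits of the catalytic head of the ATP synthase, and the complex III hinge gene Uqcrh (587 ± 28.7). The lowest were Atp5l (7.64 ± 2.64), Ndufb4 (7.15 ± 1.51) and Ndufab1 (4.38 ± 0.614). Nuclear pseudogenes of these genes were not examined, and multi-mapping fragments were not counted for them either.

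mt-Co1 stood 138-fold above the median of its 11 listed nuclear partners in complex IV and 41.0-fold above the highest of them. mt-Cytb exceeded the median of 9 complex III partners 66.1-fold. In complex I, mt-Nd1, mt-Nd2, mt-Nd5 and mt-Nd4 stood 137-fold, 95.5-fold, 74.5-fold and 41.7-fold above the median of 36 partners, and each was above all 36. mt-Nd6, in contrast, was 0.715 times the median and above 14 of the 36. Over all 13 protein genes the median was again the value of mt-Nd6. It was lower than the median of the 72 nuclear genes in 4 of 4 libraries, by -0.92 ± 0.37 on the log2(TPM + 1) scale (exact sign-flip permutation test, p = 0.125, adjusted p = 0.146). By library this was -0.40 and -0.90 in replicates 1 and 2 and -1.25 and -1.11 in replicates 3 and 4, along the Xist split. The difference was -2.34 on the log2(CPM + 1) scale. With members under 1 TPM left out the 7 remaining genes were higher by 6.14 ± 0.11.

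**Figure D4:**
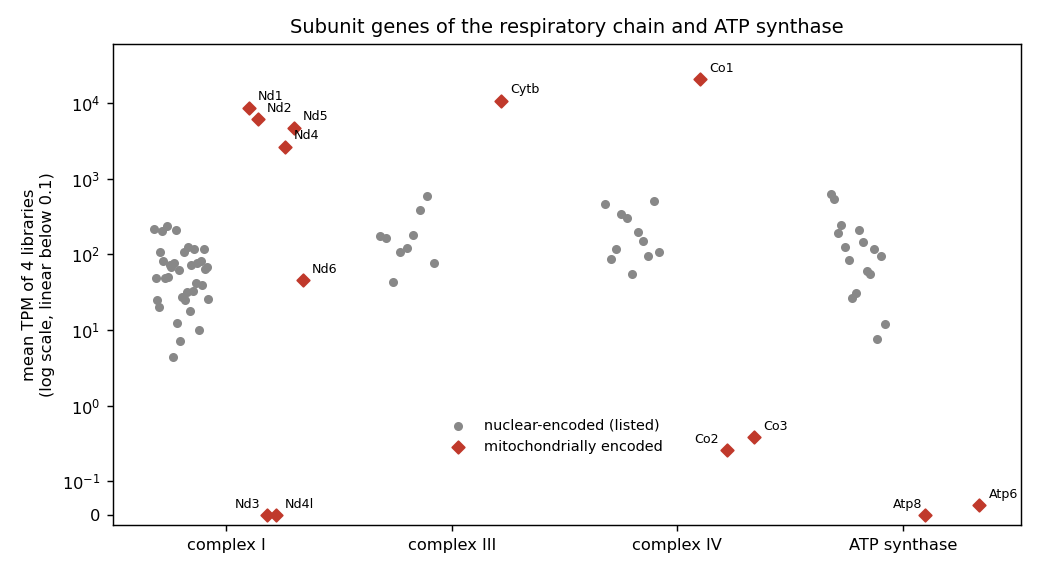
Mean TPM of 4 libraries (log scale that is linear below 0.1) for the 13 mitochondrially encoded subunit genes (diamonds) and 72 listed nuclear subunit genes (circles) by complex. 6 mitochondrial genes lie above all nuclear genes of their complex, mt-Nd6 lies among them, and the 6 genes of the block with a nuclear copy lie at or near 0.

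The nuclear factors that act on mitochondrial DNA and RNA were measured from a list of 75 genes for replication, transcription, RNA processing, tRNA modification and translation. Of these, 74 matched a symbol (Prorp, the nuclease subunit of mitochondrial RNase P, did not), and all 74 had a mean of at least 1 TPM, with a median of 16.5 TPM. The highest were Yrdc (232 ± 18.6), which makes the threonylcarbamoyl group of tRNAs, Tbrg4 (128 ± 12.02), a FASTK-family RNA-binding protein, and Pde12 (109 ± 8.08), a nuclease that removes A residues from mitochondrial RNA. The lowest were the rRNA methyltransferase gene Mrm2 (1.75 ± 0.778), the termination factor gene Mterf1b (1.42 ± 0.366) and the release factor gene Mtrf1 (1.10 ± 0.4002).

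Of the 73 factors tested for variation between libraries with edgeR, 1 was called (1.37%, against 0.813% of all genes). Cdk5rap1, which adds methylthio groups to mitochondrial tRNAs including mt-Tw, stood at 7.34, 43.5, 37.8 and 26.8 TPM in replicates 1 to 4 (edgeR adjusted p = 1.66e-13). Replicate 1 was far below the other 3. Without replicate 1 the call was lost (edgeR adjusted p = 0.9995). In replicate 1, mt-Tw was not low, with 58 counts and 82.3 TPM against 54.9, 82.8 and 52.1 TPM in replicates 2 to 4. None of the 72 nuclear subunit genes was called by edgeR; 1 had an unadjusted p under 0.05.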

How the data were processed

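RNA sequencing counts of 4 Th17 libraries were analysed. Per the file headers, the authors used featureCounts 1.4.6-p4 and GENCODE M13 exons to make the deposited counts, which are not normalized: read pairs counted as fragments, both ends mapped, strandedness option 2. The recorded options do not ask for multi-mapping or multi-gene fragments, so these were not counted. STAR appears in alignment file names there; its version and the read length are not given in the sources used here. The labels name mm10. The deposited gene length is the union of exons.

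From the counts, CPM and TPM were computed with pandas 2.3.3 and numpy 2.4.6 in Python 3.11.15 (scipy 1.17.1 for tests, matplotlib 3.10.9 for figures). Symbols, biotypes and sequences came from GENCODE M21 by identifier without version; 50376 of 50600 identifiers matched and 224 did not. Words of 31 bases (50 and 100 as alternatives) of each chrM gene were looked up on both strands in M21 transcripts of nuclear genes, in place of the nuclear genome that had been planned, which was not used here.

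Variation was tested with edgeR 4.0.16 in R 4.3.3: intercept only, its expression filter, TMM normalization, trended dispersion, and each gene's deviance compared with a chi-square on 3 degrees of freedom, Benjamini-Hochberg adjustment over 11567 genes, threshold 0.05. DESeq2 1.42.0 gave alternative size factors. The step was tested on data simulated at the fitted trend, with 1 library of a changed gene raised. It recovered 94% of 4-fold and 45% of 2-fold changes, 100 genes each, and called 8 of 11367 unchanged genes. The 7 contrasts used exact two-sided sign-flip permutation tests on log2(TPM + 1), from which no p under 0.05 is possible. Other alternatives were other pseudocounts, no length division, members of at least 1 TPM and leaving out each replicate. No pair of libraries was identical (chi-square per degree of freedom 11.5 to 35.8), so each was 1 replicate. Named were all members, the 3 highest and lowest genes and any varying gene of each list, and the 5 nuclear models with the most counts. Members and lists were chosen with earlier results of these data known.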

Additional observations from a re-analysis of the deposited data

Results flagged for a closer look

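In 8 of 48 values examined, 1 of the 4 libraries lay further from the nearest other than the spread of the rest allows. For groups of 4 normally distributed values, chance alone gives this in about 1 of 20. That rate does not hold for single counts, and some of the values derive from the same genes, so 8 of 48 cannot be set against it. The ratio of mt-Rnr2 to mt-Rnr1 was 1.78 in replicate 4, and the nearest of the others was 1.95; the same gap appears as a log2(TPM + 1) difference of 0.83 against 0.96. The ratio of mt-Co1 to mt-Nd4 was 7.49 in replicate 3, and the nearest other was 7.80. The ratio of mt-Co1 to mt-Rnr1 was 19.4 in replicate 2, where both rRNA genes were highest, and the nearest other was 22.4. mt-Tm, the methionine tRNA, stood at 0.503 CPM in replicate 4, and the nearest other was 0.303. In 3 genes a single count in 1 library, with none in the others, was enough to set that library apart: mt-Tv at 0.0246 CPM in replicate 2, mt-Atp6 at 0.0246 CPM in replicate 2 and mt-Te at 0.0275 CPM in replicate 1. A single count is below the limit that a count of 0 allows.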

How the results depend on the processing

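Leaving out members under 1 TPM reversed 4 median comparisons on the log2(TPM + 1) scale: protein against rRNA genes (2.21), complex IV against complex I (2.12), protein genes against nuclear subunits (6.14) and genes sharing at least 50% of their words against the others (0.28). A pseudocount of 0.1 reversed mt-Nd6 against the other protein genes (0.41). Dividing by unshared words, chosen after seeing the data, reversed mt-Nd5 against mt-Nd4 (0.794) and moved mt-Co1 over mt-Cytb to 4.91 and over mt-Nd4 to 7.97; the construction replaces length by another divisor. With words of 100 bases, mt-Co1 shared 30.8%. Genes varying beyond the trend numbered 256 at the common dispersion, and 35 to 60 with 1 replicate left out; the cause was not tested. Listed factors called were 0 to 1 with 1 replicate left out, 0 being without replicate 1. With 1 replicate left out, no comparison changed direction: the chrM share ran from 2.10% to 2.24%, and the differences from -5.00 to -4.74 (protein against rRNA), 5.14 to 5.25 (protein against tRNA), -0.69 to -0.24 (mt-Nd6), -10.99 to -10.65 (complex IV against I), -1.09 to -0.80 (nuclear subunits), -12.39 to -12.13 (shared words) and 0.92 to 0.97 (mt-Rnr2 against mt-Rnr1). No paired analysis was possible because there is 1 group. Depth limits the 20 members with under 10 counts in all, and the words were compared with gene models only, so nuclear copies outside them are missed.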
